A study of Mus musculus with 4 samples.

Results

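The genes described here encode the proteins of the splicing machinery and of the RNA around it. They were chosen by name: every array gene name beginning with Sfrs, Srsf, Snrp, Sf3a, Sf3b, Hnrp or Prpf, which gave 70 of the 27745 gene names on the array, carried by 147 probes. The name rule itself uses no measured value, although it was set with earlier results of these data known. Each gene was represented by its probe with the highest mean signal. Names are the older ones printed on the array, with the current symbol in brackets where it differs.

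The lymphoma lines are 2 B-cell lines, established independently of each other from mice with a dopamine receptor 3 transgene, each measured on 1 array. They were set against 2 samples of B220+ splenocytes, which are spleen cells selected by a surface protein of B cells. Per the labels, all 4 samples came from female C57BL/6N mice. The labels give neither the promoter of the transgene nor the age of the animals, and they do not say whether the splenocyte donors carried the transgene or were pooled. Lymphoma, transgene, growth as a cell line and origin of the cells therefore change together between the groups and cannot be told apart. Nor do the labels say whether the splenocyte samples came from separate mice, and the spread behind the p-values is that between these arrays, which may be partly technical.

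Introns are removed by the spliceosome, which is built on each transcript from small nuclear ribonucleoproteins (snRNPs), particles of a short nuclear RNA and its proteins. The U1 particle recognises the 5′ splice site, the U2 particle with its SF3A and SF3B complexes settles on the branch site, and the U4/U6.U5 particle then joins before the cut. Most of these RNAs carry a ring of Sm proteins. SR proteins, which are rich in arginine and serine, and heterogeneous nuclear ribonucleoproteins (hnRNPs) bind the transcript itself and favour or disfavour the use of nearby splice sites. In lymphocytes, alternative splicing is best known from Ptprc, the gene of the surface phosphatase CD45, whose variable exons change with activation.

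Levels are given as relative signal, the deposited processed signal of a probe divided by the 75th percentile of its array, so that 1 is the signal of that percentile. The percentile stood at signals of 1122 and 1315 in lymphoma lines 1 and 2, and of 1078 and 514 in splenocyte samples 1 and 2. Between 24974 and 27319 probes per array were well above background, the Feature Extraction software's own flag, and 0 spots were saturated. Log2 values of the genes correlated at 0.991 between the lines and at 0.992 between the splenocyte samples, and at 0.831 to 0.843 across the groups. All arrays lay on 1 slide with 1 scan time, so neither could separate the groups. A gene was tested if its probe was well above background on at least 2 of the 4 arrays, and called where the limma adjusted p, over all genes tested, was under 0.05. A probe's signal depends on its sequence, so signals are compared between samples and not between genes. In RNA of whole samples, fewer cells of a type and less RNA per cell cannot be told apart.

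Of the 70 genes, 69 were tested. The remaining gene, Hnrpul2 (Hnrnpul2), was not well above background on any array. The lines had higher signal for 26 genes (37.7%), lower signal for 10 (14.5%), and 33 did not pass. Without splenocyte sample 1 there were 13 higher and 6 lower calls, and without sample 2 there were 12 and 6. With all 4 arrays, 30.8% of the 18306 genes tested were called higher and 32.7% lower, 63.5% in all, so that calls in general were common. The median log2 difference was 0.23 for the splicing genes and -0.05 for all genes. Most splicing genes have bright probes, and the 5986 genes within the 10th to 90th percentile of their mean signal were called higher in 38.8% of cases and lower in 26.7%, with a median of 0.20. Against genes of like signal, then, the share of higher calls and the median were close, and the share of lower calls was smaller. In 36 genes both lines lay above both splenocyte samples, and in 16 both lay below, while 41.3% and 43.8% of all genes tested did so. Of all calls among the splicing genes 72.2% were higher, against 48.5% of the calls among all genes. With arrays centred on their median this share was 87.5%, against 63.2% among all genes. With quantile normalization it was 63.2%, against 52.3%, and with the mean of tested probes 60.5%, against 48.2%. Among genes of like signal, higher calls (38.8%) also outnumbered lower ones (26.7%).

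The split was uneven across roles. Higher calls were made for 8 of 10 U2 snRNP genes and 6 of 8 Sm core genes, but for 2 of 8 SR proteins, 1 of 8 SR-related proteins and 2 of 19 tested hnRNPs. The share of lower calls ran from 0% in the Sm core to 37.5% in the SR-related proteins. Over all genes tested it was 32.7%, and over genes of like signal 26.7%.

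**Figure D1:**
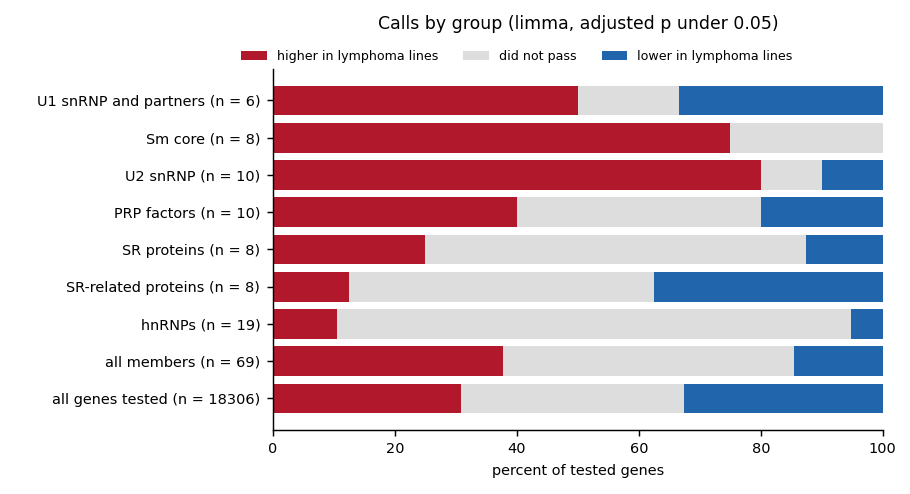
Percent of tested genes in each role that were called higher (red), did not pass (grey) or were called lower (blue) in the lymphoma lines, with all splicing genes and all genes tested below. The U2 snRNP (80% higher) and the Sm core (75%) hold the greatest shares of higher calls, and the hnRNPs hold 10.5%, against 30.8% of all genes tested.

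The Sm core is the ring of proteins that U1, U2, U4 and U5 RNAs share. All 8 genes had a positive difference, 6 were called higher and none lower, with a median log2 difference of 1.40. That median stayed positive, between 0.99 and 1.81, under each of the 4 other scalings tried, and 4 of the 8 were called higher without either of the splenocyte arrays in turn. Snrpb (probe at chr2:129866817-129866876, minus strand, mm8), which encodes SmB, had relative signals of 25.9 and 18.5 in the lymphoma lines, against 5.16 and 4.76 in the splenocyte samples. Both lines lay far above both splenocyte samples, by 4.42-fold (log2 difference 2.14 ± 0.22 SE, adjusted p = 0.00199). Snrpd2 (chr7:18308381-18309763, plus strand), the gene of SmD2, stood at 20.6 and 17.0 in the lines, against 5.53 and 5.75 in the splenocytes. Its lines were again the 2 higher arrays, with a 3.32-fold difference (log2 1.73 ± 0.17 SE, adjusted p = 0.00171).

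Snrpd1 (chr18:10626889-10626948, plus strand), for SmD1, had relative signals of 36.4 and 27.1 in the lines, against 11.4 and 10.3 in the splenocytes, or 2.90-fold (log2 1.53 ± 0.20 SE, adjusted p = 0.00399). The groups did not overlap at this probe, but a much dimmer probe of the gene went the other way, as described below, and the mean of both probes was reversed (log2 -0.27). Snrpd3 (chr10:74978998-74979057, plus strand), for SmD3, stood at 70.2 in line 1 and 38.4 in line 2, against 20.7 and 22.5 in the splenocytes. Here the lines themselves lay well apart, and the 2.41-fold difference (log2 1.27 ± 0.33 SE, adjusted p = 0.0278) no longer passed when either splenocyte array was left out.

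Snrpf, for SmF, was called at 1.52-fold with an adjusted p of 0.0427, a call lost under 6 of 16 alternatives, among them leaving out line 1 or either splenocyte array. Snrpn encodes SmN, a close relative of SmB known from brain and expressed from the paternal allele. Its relative signals were very low, 0.0790 and 0.0860 in the lines, against 0.0248 and 0.0109 in the splenocytes, where the second sample was not well above background. Taking as floor for that array the dimmest signal that the software still marked, the lines were at least 4.68-fold higher (adjusted p = 0.0101). The call did not pass with normexp background correction or with the mean of tested probes, and a second probe, 17 bases away, did not pass (log2 0.56 ± 0.86 SE, adjusted p = 0.598). Since SmN and SmB are near-identical proteins, probes of these genes could share signal, which was not tested. The genes of SmE (Snrpe) and SmG (Snrpg) did not pass, with log2 differences of 0.34 (95% interval -0.29 to 0.96) and 0.12 (-0.39 to 0.62). Snrpg (chr6:86344404-86344463, plus strand), among the 6 splicing genes with the brightest probes, stood at 71.4 and 55.3 in the lines, against 56.2 and 59.8 in the splenocytes, so the groups overlapped.

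Of 6 genes counted with U1, 3 were called higher and 2 lower, with a median log2 difference of 0.51 (0.38 to 0.91 under the other scalings). The particle's own proteins were higher or did not pass. Snrpc (chr17:27579410-27579469, plus strand) encodes U1-C, which helps U1 hold the 5′ splice site. It had relative signals of 37.0 and 28.5 in the lines, against 11.4 and 11.1 in the splenocytes. Both lines exceeded both splenocyte samples, by 2.88-fold (log2 1.53 ± 0.19 SE, adjusted p = 0.00316). Snrpa, for U1-A, was 1.79-fold higher (adjusted p = 0.00832), and its call was lost without either splenocyte array. Snrp70 (Snrnp70), for U1-70K, had a log2 difference of 0.44 (95% interval -0.10 to 0.98) and did not pass.

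Relatives of yeast proteins that work with U1 are counted with it here, and 2 of them were called lower. Prpf40b (chr15:99144800-99144859, plus strand) stood at 0.455 and 0.511 in the lines, against 0.839 and 0.841 in the splenocytes. Both lines lay below, by 1.74-fold (log2 -0.80 ± 0.15 SE, adjusted p = 0.0101), which did not pass with median centring or without either splenocyte array. Prpf39 (chr12:65981850-65981909, plus strand) had relative signals of 1.69 and 1.73 in the lines, against 4.51 and 4.20 in the splenocytes. The arrays of each group lay close together, and the lines were 2.55-fold lower (log2 -1.35 ± 0.14 SE, adjusted p = 0.00210).

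Of the U2 snRNP, 8 genes were called higher and 1 lower, with a median log2 difference of 0.87, which stayed between 0.74 and 1.27 under the other scalings. Without splenocyte sample 1 the higher calls were 4, and without sample 2 they were 3. Snrpa1 (chr7:65948152-65948421, plus strand), for U2-A′, stood at 19.5 and 13.3 in the lines, against 6.50 and 6.55 in the splenocytes. The lines were 2.47-fold higher (log2 1.31 ± 0.23 SE, adjusted p = 0.00913), with line 1 above line 2. Its partner Snrpb2, for U2-B″, was 2.003-fold higher (adjusted p = 0.0108), a call lost without either splenocyte array.

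Within SF3A, which helps U2 mature, Sf3a1 (chr11:4080333-4080392, plus strand) had relative signals of 18.3 and 15.5 in the lines, against 7.83 and 8.74 in the splenocytes. That is a 2.04-fold difference (log2 1.03 ± 0.17 SE, adjusted p = 0.00702) without overlap. Sf3a2 was called at 1.47-fold (adjusted p = 0.0422), and the call was lost under 9 of 16 alternatives. Sf3a3 did not pass (log2 0.23, 95% interval -0.41 to 0.86).

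SF3B clamps the branch site, and its subunits were called in both directions. Sf3b5 (2.18-fold, adjusted p = 0.00508), Sf3b3 (1.89-fold, 0.00934), Sf3b4 (1.76-fold, 0.0320) and Sf3b2 (1.44-fold, 0.0459) were higher at their brightest probes. The other probes of Sf3b3 were called lower, as described below, and the mean of its tested probes was reversed (log2 -1.12). Sf3b5 did not pass with the mean of its probes. Its dimmer probe lay 2911 bases away on the opposite strand. The relative signals of that probe were very low, 0.0124 and 0.00884 in the lines, against 0.0126 and 0.0167 in the splenocytes. Sf3b4 and Sf3b2 lost their calls without either splenocyte array, and Sf3b3 without splenocyte sample 2. Sf3b1 (chr1:54956802-54959071, minus strand), the gene of the subunit that holds the branch site, stood at 3.20 and 3.05 in the lines, against 6.51 and 5.69 in the splenocytes. Both lines lay below both splenocyte samples, by 1.95-fold (log2 -0.96 ± 0.15 SE, adjusted p = 0.00658), and this call held under every alternative tried. A dimmer RefSeq probe of Sf3b1, 27983 bases away, did not pass by itself (log2 -0.41 ± 0.14 SE, limma adjusted p = 0.0620).

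**Figure D2:**
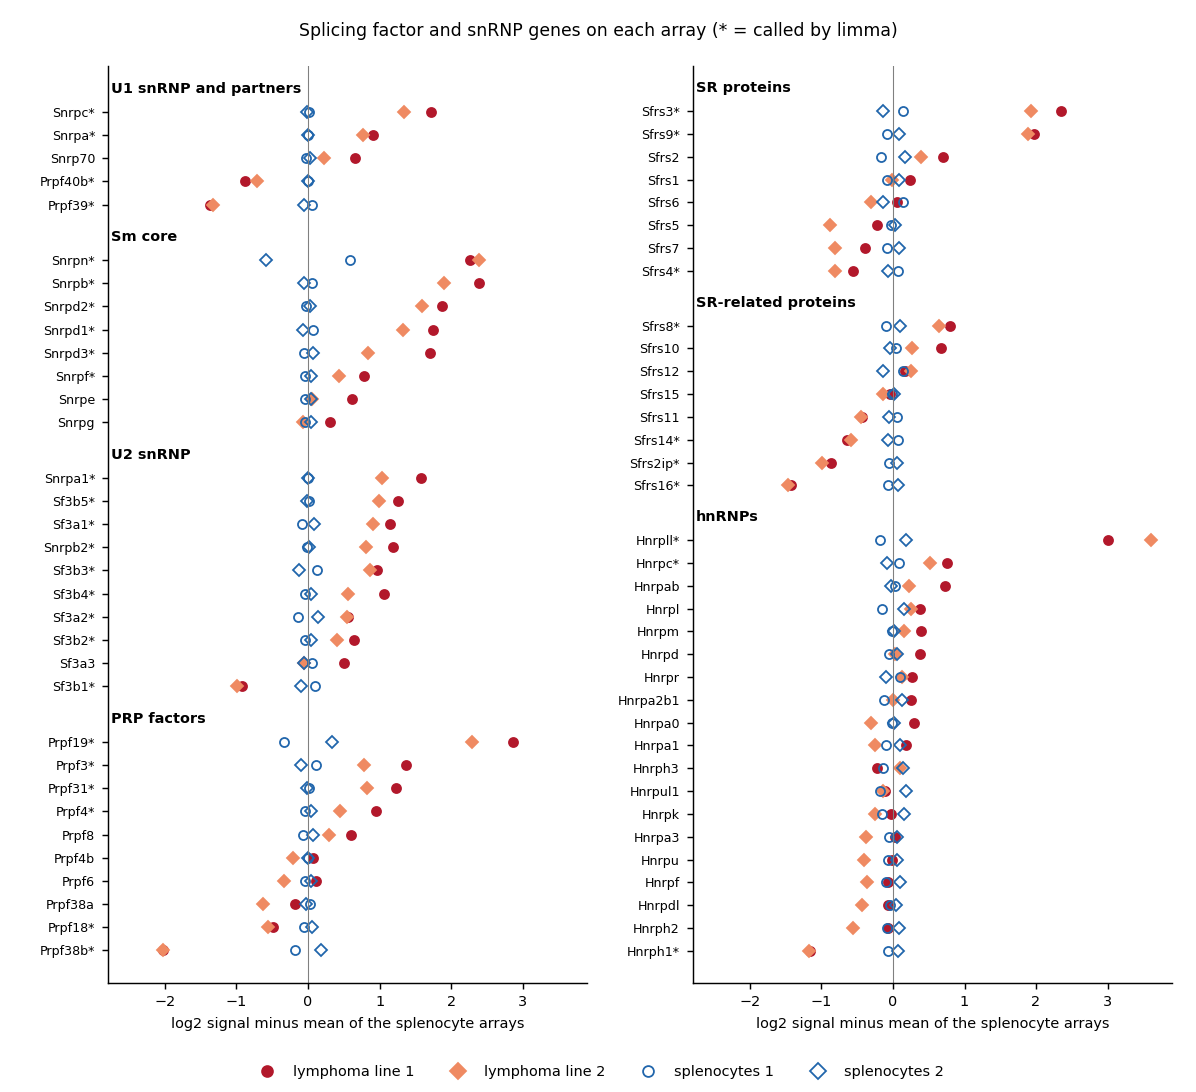
Log2 relative signal of the splicing genes reported by name on each array, minus the mean of the 2 splenocyte arrays, grouped by role; filled marks are lymphoma lines 1 and 2, open marks splenocyte samples 1 and 2, and an asterisk marks a limma adjusted p under 0.05. Filled marks lie mostly to the right of 0 in the Sm core and U2 panels, Sf3b1 being the exception among called genes, and around 0 for most hnRNPs.

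The PRP group takes in pre-mRNA processing factors of several particles, and its 10 genes gave 4 higher and 2 lower calls. The share of higher calls (40%) was close to that of genes of like signal (38.8%). The median log2 difference of the group was 0.19, between 0.06 and 0.60 under the other scalings. Prpf19 (chr19:10970724-10970783, plus strand), the ubiquitin ligase that gives its name to a complex needed for activation of the spliceosome, had relative signals of 8.78 and 5.92 in the lines, against 0.957 and 1.53 in the splenocytes. Both lines lay far above, by 5.96-fold (log2 2.58 ± 0.33 SE, adjusted p = 0.00361), although the samples of each group also differed among themselves. The 3 U4/U6 proteins with a Prpf name were higher. Prpf3 (chr3:95916081-95916140, minus strand) stood at 15.0 and 9.98 in the lines, against 6.24 and 5.39 in the splenocytes (2.11-fold, log2 1.08 ± 0.25 SE, adjusted p = 0.0207). Prpf31 was 2.04-fold higher (adjusted p = 0.0106) and Prpf4 1.62-fold (adjusted p = 0.0475). These 3 calls did not survive leaving out either splenocyte array.

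The U5 scaffold Prpf8 (log2 0.45, 95% interval -0.03 to 0.93), the bridging protein Prpf6 (-0.11, -0.66 to 0.43), the kinase Prpf4b (-0.07, -0.51 to 0.37) and Prpf38a of the activating spliceosome (-0.40, -0.96 to 0.15) did not pass. Dimmer probes of Prpf4b were called lower (log2 -0.87 and -1.93), and another was not called (0.34). The dimmer probe of Prpf8 was called higher (0.74), and that of Prpf38a lower (-0.63). A relative of Prpf38a, Prpf38b (chr3:109032185-109032244, minus strand), stood at 0.870 and 0.873 in the lines, against 3.11 and 4.04 in the splenocytes. Its lines nearly coincided and lay 4.07-fold below (log2 -2.02 ± 0.19 SE, adjusted p = 0.00156). A second RefSeq probe of the gene, 1023 bases away, did not pass (log2 -0.49 ± 0.28 SE, adjusted p = 0.188), and the mean of both probes gave -1.26, still called. Prpf18 (chr2:4539499-4539558, minus strand), a factor of the second catalytic step, had 4.76 and 4.55 in the lines, against 6.40 and 6.96 in the splenocytes. Its 1.43-fold decrease (log2 -0.52 ± 0.14 SE, adjusted p = 0.0331) was lost under 8 alternatives.

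The classical SR proteins gave 2 higher calls and 1 lower among 8 genes. Sfrs3 (Srsf3), which encodes SRp20, had relative signals of 4.05 and 3.03 in the lines at its brightest probe (chr17:28770915-28770974, plus strand), against 0.873 and 0.721 in the splenocytes. The lines were the 2 higher arrays, by 4.41-fold (log2 2.14 ± 0.22 SE, adjusted p = 0.00198). Its other probe was called lower, as described below, and the mean of both probes was reversed (log2 -0.66). Sfrs9 (Srsf9), for SRp30c, probed at chr5:115593737-115593796 on the plus strand, stood at 64.1 and 60.2 in the lines, against 15.4 and 17.2 in the splenocytes. With little spread in either group, the difference was 3.81-fold (log2 1.93 ± 0.15 SE, adjusted p = 0.00103). Sfrs4 (Srsf4), for SRp75, at chr4:131173630-131173689 on the plus strand, had 5.04 and 4.26 in the lines, against 7.79 and 7.13 in the splenocytes. It was 1.61-fold lower (log2 -0.69 ± 0.16 SE, adjusted p = 0.0223). That call was lost under 6 of 16 alternatives, among them median centring, the mean of tested probes and leaving out line 2 or either splenocyte array. A dimmer RefSeq probe of Sfrs4, 591 bases away, did not pass (log2 -0.04 ± 0.15 SE), so the call rests on 1 probe.

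The other 5 SR proteins did not pass. Their log2 differences ran through 0.55 for Sfrs2 (Srsf2, SC35), 0.11 for Sfrs1 (Srsf1, SF2/ASF), -0.13 for Sfrs6 (Srsf6), -0.55 for Sfrs5 (Srsf5) and -0.60 for Sfrs7 (Srsf7). Sfrs5 (chr12:81865567-81866216, plus strand) stood at 7.18 in line 1 and 4.52 in line 2, against 8.21 and 8.50 in the splenocytes, so line 2 was the array apart. The median of the 8 SR proteins was -0.01, and its sign depended on the scaling, from -0.20 with quantile normalization to 0.40 with median centring.

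Among the SR-related proteins 3 of 8 were called lower (37.5%, close to the 32.7% of all genes tested) and 1 higher. Sfrs16 (Clasrp), whose protein binds the kinase Clk4, was measured at chr7:18739577-18739636 on the minus strand. It had relative signals of 16.9 and 16.4 in the lines, against 43.6 and 47.7 in the splenocytes. The arrays of each group nearly coincided, and the lines were 2.74-fold lower (log2 -1.45 ± 0.14 SE, adjusted p = 0.00184). Sfrs2ip (Scaf11), which binds SC35, stood at 6.80 and 6.24 in the lines, against 12.0 and 12.9 in the splenocytes (chr15:96242846-96242905, minus strand). Its 1.91-fold decrease (log2 -0.93 ± 0.15 SE, adjusted p = 0.00630) did not pass with median centring. Nor did a dimmer RefSeq probe of Sfrs2ip, 9886 bases away, pass (log2 -0.20 ± 0.17 SE).

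Sfrs14 (Sugp2), at chr8:73189528-73189587 on the plus strand, had 1.09 and 1.13 in the lines, against 1.78 and 1.63 in the splenocytes. The lines were 1.53-fold lower (log2 -0.62 ± 0.14 SE, adjusted p = 0.0204). That call was lost under 5 of 16 alternatives, among them median centring and leaving out line 1 or either splenocyte array. Sfrs8 (Sfswap), the mouse relative of the fly suppressor of white apricot, was 1.64-fold higher (adjusted p = 0.0173), a call lost without line 1 or either splenocyte array. Sfrs10 (Tra2b, 0.47), Sfrs12 (Srek1, 0.21), Sfrs15 (Scaf4, -0.09) and Sfrs11 (Srsf11, -0.44) did not pass. The median of the SR-related genes was -0.26 and turned to 0.14 with median centring.

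Of the 19 tested hnRNPs, 16 did not pass. The greatest called increase among splicing genes measured on all arrays was nevertheless Hnrpll (Hnrnpll), at chr17:79938278-79938337 on the minus strand. Its protein is known for making lymphocytes skip the variable exons of Ptprc. It had relative signals of 0.269 and 0.411 in the lines, against 0.0296 and 0.0383 in the splenocytes. Line 2 exceeded line 1, and both lay 9.88-fold above the splenocytes (log2 3.30 ± 0.28 SE, adjusted p = 0.00127). With normexp background correction its log2 difference was 1.81, and it no longer ranked first. Hnrph1 (Hnrnph1), for the G-tract binding hnRNP H1, at chr11:50229522-50229581 on the plus strand, stood at 17.4 and 17.2 in the lines, against 36.9 and 40.7 in the splenocytes. It was 2.24-fold lower (log2 -1.16 ± 0.14 SE, adjusted p = 0.00325), alone among hnRNPs except with quantile normalization, where Hnrpdl (Hnrnpdl) was called lower too. Its paralogues Hnrph2 (log2 -0.31, 95% interval -0.91 to 0.28) and Hnrph3 (-0.06, -0.59 to 0.47) did not pass. Hnrpc (Hnrnpc) was 1.55-fold higher (adjusted p = 0.0293), and lost that call without line 1 or either splenocyte array.

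The remaining hnRNPs had log2 differences from 0.47 for Hnrpab (Hnrnpab) to -0.31 for Hnrph2. Those with the brightest probes are given in full. Hnrpk (Hnrnpk, chr13:58401626-58401685, minus strand), whose protein binds C-rich RNA, had relative signals of 155 and 133 in the lines, against 141 and 177 in the splenocytes. Hnrpf (Hnrnpf, chr6:117891108-117891167, plus strand), a relative of hnRNP H1, stood at 144 and 118 in the lines, against 141 and 162 in the splenocytes. In both genes the groups overlapped, with 95% intervals of -0.65 to 0.37 and of -0.70 to 0.27 for the log2 difference.

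Hnrpa3 (Hnrnpa3, chr2:75466389-75466448, plus strand) also overlapped, with 124 and 93.98 in the lines, against 117 and 126 in the splenocytes (interval -0.70 to 0.35). Hnrpab (chr11:51444323-51444382, minus strand) had 173 and 122 in the lines, against 106 and 103 in the splenocytes (interval -0.12 to 1.06). Hnrpm (Hnrnpm, chr17:33252995-33253054, minus strand) had 89.96 and 76.3 in the lines, against 67.8 and 69.3 in the splenocytes (interval -0.15 to 0.70). At these probes of the last 2 genes both lines lay above both splenocyte samples, by less than the test could call. Of the dimmer Hnrpab probes, some were called higher (log2 0.84 and 0.90) and another did not pass. Some other hnRNPs that did not pass also had a called dimmer probe. It was higher for Hnrpu (Hnrnpu, log2 1.31), Hnrpul1 (Hnrnpul1, 1.26), Hnrpa2b1 (Hnrnpa2b1, 0.99) and Hnrpk (0.76). It was lower for Hnrpdl (-1.54), Hnrpr (Hnrnpr, -1.40) and Hnrpa1 (Hnrnpa1, -1.25). Hnrpa0 (Hnrnpa0, chr13:58136968-58137027, minus strand) stood at 4.54 and 2.97 in the lines, on either side of 3.65 and 3.73 in the splenocytes. The hnRNP median was -0.03, and its sign too depended on the scaling, from -0.16 to 0.38.

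Probes of the same gene often differed. In all, 47 genes had several tested probes. In 10 of them every probe was called higher, in 1 (Prpf39) every probe was called lower, and in 5 none was called. In 4 genes (8.51%) probes were called in opposite directions, which was as common among all genes with several tested probes (8.68% of 6230). Over single probes 32.3% of all 27404 were called higher and 32.5% lower, 64.8% in all, and of the 142 tested probes of the splicing genes 52 were called higher and 29 lower.

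Sfrs3 showed the widest disagreement. Against the 4.41-fold increase of its brightest probe, a second probe at chr17:28767663-28767722, taken from a cDNA clone, had relative signals of 0.0152 and 0.0234 in the lines, against 0.210 and 0.206 in the splenocytes. That probe lay 11.0-fold lower in the lines (log2 -3.47 ± 0.25 SE, adjusted p = 0.000804). For Snrpd1 a clone probe at chr18:10639889-10639948, 13000 bases from the brightest, stood at 0.00539 and 0.00887 in the lines, against 0.0296 and 0.0288 in the splenocytes. It was not well above background in line 1, and its log2 difference was -2.08 ± 0.28 (SE, adjusted p = 0.00374).

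The 2 other probes of Sf3b3, both from a cDNA clone, lay 35435 and 34566 bases from its brightest probe, at chr8:113732918-113732977 and chr8:113732049-113732108. The first had 1.46 and 2.03 in the lines, against 9.48 and 7.84 in the splenocytes. The second had 1.23 and 1.76 in the lines, against 6.15 and 5.26 in the splenocytes. Both were called lower (log2 -2.32 and -1.95), where the brightest probe (chr8:113697483-113697542, minus strand) had 10.9 and 10.2 in the lines, against 6.09 and 5.10 in the splenocytes, and was called higher. In Sfrs12 the brightest probe (chr13:104862126-104862185, minus strand) had 2.83 and 3.00 in the lines, against 2.78 and 2.28 in the splenocytes, and did not pass, while 2 further RefSeq probes were called higher (log2 0.46 and 0.43). Its clone probe had 0.0821 and 0.150 in the lines, against 0.872 and 0.908 in the splenocytes (log2 -3.00 ± 0.32 SE, adjusted p = 0.00206).

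Clone probes lower in the lines, beside a brightest probe that did not pass, were also found for Snrp70 (log2 -3.27), Sfrs10 (-2.90) and Sfrs15 (-2.50). Smaller decreases of this kind were found for Hnrpr (-1.40), Sfrs11 (-1.40), Hnrpa1 (-1.25) and Prpf38a (-0.63). The clone probes of Sfrs15 (0.00940 and 0.00911), Hnrpr (0.0118 and 0.0110) and Prpf38a (0.0276 and 0.0273) had very low relative signals in the lines. They were still well above background on every array. In Sfrs7 it was a dimmer RefSeq probe, 355 bases away, that was called higher (log2 1.64). Among the splicing genes, 21 tested clone probes were dimmer than a RefSeq probe of their gene. Of these 12 (57.1%) were called lower and 6 (28.6%) higher, with a median log2 difference of -1.25. Over all genes 1660 such probes were called lower in 47.2% of cases and higher in 23.7%, with a median of -0.67. Whether such probes read other transcript forms, retained introns or neighbouring genes was not tested.

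**Figure D3:**
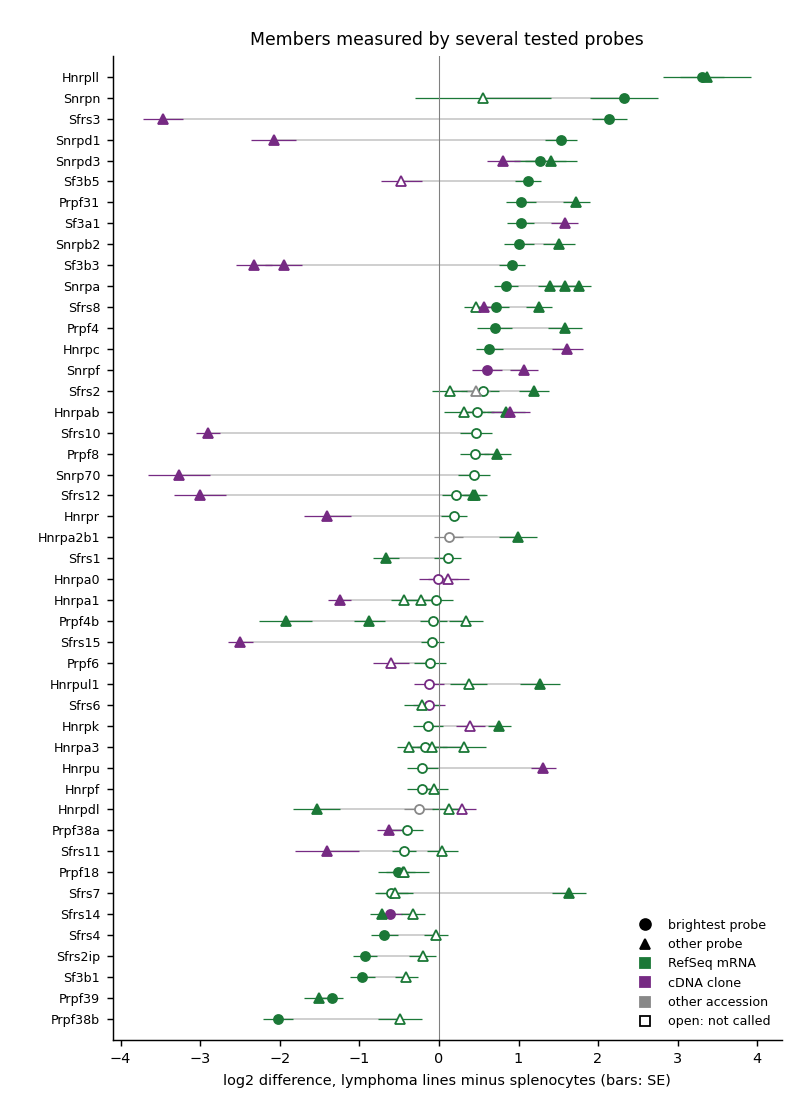
Log2 difference, lymphoma lines minus splenocytes, for the tested probes of genes with several of them; circles are the brightest probe and triangles the others, bars are SE, colours give the kind of sequence the probe was taken from, and open marks were not called. Purple triangles, from cDNA clones, lie far left of the brightest probe in Sfrs3, Snrpd1, Sf3b3, Sfrs12, Snrp70, Sfrs10 and Sfrs15.

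Line 1 had the higher relative signal in 61 of the 69 genes, with a median log2 difference between the lines, line 1 minus line 2, of 0.28. Over all genes the lines differed by a median of 0.00, with line 1 higher in 50.1%, and over the genes of like signal by 0.08, with line 1 higher in 62.4%. With quantile normalization line 1 was higher in 53 of the 69, with a median of 0.13. Between the splenocyte samples the median was -0.08, with sample 1 higher in 25 genes. Each line had 1 array, so this difference has no test, and a difference between lines cannot be told apart from a difference between arrays.

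The greatest gap between the lines was that of Snrpd3 (log2 0.87, line 1 higher), followed by Sfrs5 (0.67), Hnrpa0 (0.61), Hnrpll (-0.61, line 2 higher) and Prpf3 (0.59), with genes dim on any array left aside. The PRP factors (median 0.42, 9 of 10 higher in line 1) and the Sm core (0.40, 7 of 8) differed most by role, and the SR-related proteins least (0.07, 6 of 8).

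**Figure D4:**
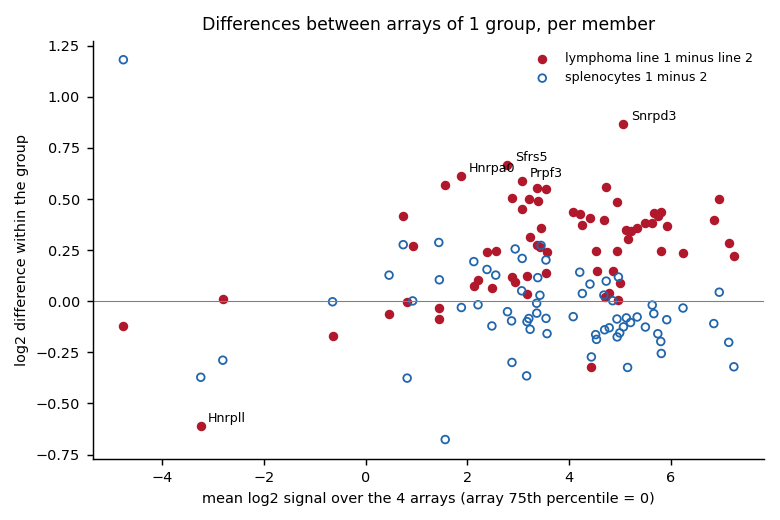
Difference in log2 relative signal within each group, plotted against the mean log2 relative signal of the gene over the 4 arrays, 1 point per gene: line 1 minus line 2 (red, filled) and splenocyte sample 1 minus sample 2 (blue, open). Most red points lie above 0, at a median of 0.28, and the 5 named genes have the greatest gaps between the lines.

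Other genes of splicing, not caught by the name rule, were counted from lists by role. Of 130 listed genes 127 were tested, 52 were called higher (40.9%), 27 lower (21.3%) and 48 did not pass, with a median log2 difference of 0.38. All genes tested were called higher in 30.8% of cases and lower in 32.7%. For genes with signals like those of the name-rule genes these shares were 38.8% and 26.7%. The counts of each list below are read beside the same shares. For the listed genes together, the share of higher calls was close to that of genes of like signal, and the share of lower calls was smaller. Leaving out splenocyte sample 1 gave 31 higher and 13 lower calls, and leaving out sample 2 gave 33 and 12. The Sm-like proteins and the factors that assemble snRNPs gave 16 higher and 1 lower call of 25. Lsm2, part of the Sm-like ring on U6 RNA, had relative signals of 2.57 and 2.08 in the lines, against 0.217 and 0.183 in the splenocytes, an 11.6-fold difference. Prmt5, which methylates Sm proteins before assembly, was 4.16-fold higher, and Lsm10, an Sm-like protein of the histone-processing U7 particle, was 1.80-fold lower.

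Around U2, 4 of 10 auxiliary factors were higher and none lower, with U2af1, which reads the 3′ splice site, 5.49-fold higher and the SF3B subunit Phf5a 3.04-fold higher. Partners of the U4/U6.U5 particle gave 9 higher and 2 lower calls of 16. The U5 protein Eftud2 was 3.15-fold higher, the U4 RNA-binding Nhp2l1 2.74-fold higher, and the helicases Ddx23 and Dhx16 were 10.1-fold and 1.58-fold lower. Ddx23 was read at low relative signals, 0.0144 and 0.0189 in the lines, against 0.163 and 0.169 in the splenocytes. The complex of Prpf19 and its associates, Prpf19 left aside, gave 5 higher and 3 lower calls of 15, led by Bud31 (3.29-fold) and Ctnnbl1 (2.03-fold) upward and by Syf2 (2.60-fold) and Cwc22 (2.01-fold) downward. The exon junction complex, laid down by splicing, gave 4 higher calls and 1 lower of 7, with Eif4a3 2.22-fold and Magohb 2.11-fold higher and Upf3b 1.43-fold lower.

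The minor spliceosome, which removes a rare class of introns, gave 4 higher and 3 lower calls of 9. Snrnp35 (3.30-fold) and Snrnp25 (3.25-fold) of its U11/U12 particle were higher, and Zrsr2 (3.00-fold) and Zrsr1 (1.53-fold) lower. The list of SR protein kinases and relatives leaned the other way, with 9 lower calls and 1 higher among the 14 tested genes outside the name rule. Clk4, a kinase that releases SR proteins from nuclear speckles and a partner of the Sfrs16 product, had 3.45 and 4.98 in the lines, against 34.3 and 33.5 in the splenocytes (8.18-fold lower). Srrm1, an SR-related splicing coactivator, was 10.9-fold lower, and Tnpo3, which imports SR proteins into the nucleus, 1.77-fold higher. The signals of Srrm1 were low, 0.0507 and 0.0706 in the lines, against 0.536 and 0.795 in the splenocytes. The hnRNP genes with other names gave 5 higher and 2 lower calls of 10, with Syncrip 2.43-fold higher, and Taf15 4.02-fold and Raly 1.52-fold lower.

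Splicing regulators gave 4 higher and 6 lower calls of 21 tested. Rbfox1, a regulator best known from neurons and muscle, had relative signals of 0.494 and 0.607 in the lines, against 0.00234 and 0.00439 in the splenocytes, where it was not well above background on either array. It was at least 58.8-fold higher in the lines (adjusted p = 0.000351), taking the lowest signal well above background on each splenocyte array as the floor. Tial1 was 4.36-fold higher, and Rbm5 and Ptbp2 were 3.57-fold and 2.47-fold lower.

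Promoter sequence was looked up for the splicing genes in RefSeq's windows of 300 bases (250 before to 50 after each annotated start, GRCm38.p6). Such windows were found for 62 of the 70 genes, 85 windows in all, and were searched on both strands for 2 short motifs. CCGGAAG, the core of the sites that ETS factors bind, was in 34.1% of these windows, against 8.86% of all 32851 windows. By gene it was in 9 of 20 called higher, in 2 of 9 called lower, and in 11 of 33 that did not pass or were not tested. CACGTG, the E-box bound by MYC and its relatives, was in 14.1% of the windows, against 7.15% of all, and in 2 of 20 genes called higher, 3 of 9 called lower and 5 of 33 others. CACGTG reads the same on both strands, and neither motif holds the other. A match is a run of letters and was not tested as a site.

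Of the 13 genes whose call held under every alternative tried, 4 have CCGGAAG in a window. These windows are shown because they place the motif in genes called in either direction. Snrpc, Sf3a1 and Prpf19 were called higher and Sfrs16 lower. Letters run 5′ to 3′ along the gene, the annotated start is followed by the last 50 bases, and capitals mark CCGGAAG or its reverse complement.
Snrpc, chr17:27839837-27840136, plus strand: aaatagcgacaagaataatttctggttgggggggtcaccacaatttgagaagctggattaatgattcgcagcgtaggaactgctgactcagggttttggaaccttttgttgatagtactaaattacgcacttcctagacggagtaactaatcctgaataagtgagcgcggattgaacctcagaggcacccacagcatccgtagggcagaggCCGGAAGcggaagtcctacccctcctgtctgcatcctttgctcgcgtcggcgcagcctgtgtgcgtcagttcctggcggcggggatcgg
Sf3a1, chr11:4160104-4160403, plus strand: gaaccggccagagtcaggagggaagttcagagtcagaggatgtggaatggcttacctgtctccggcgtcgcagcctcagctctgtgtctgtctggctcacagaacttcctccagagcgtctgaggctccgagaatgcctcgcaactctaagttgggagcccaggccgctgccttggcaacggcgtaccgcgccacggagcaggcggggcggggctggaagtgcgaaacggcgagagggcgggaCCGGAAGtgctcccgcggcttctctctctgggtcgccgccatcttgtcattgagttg
Prpf19, chr19:10894981-10895280, plus strand: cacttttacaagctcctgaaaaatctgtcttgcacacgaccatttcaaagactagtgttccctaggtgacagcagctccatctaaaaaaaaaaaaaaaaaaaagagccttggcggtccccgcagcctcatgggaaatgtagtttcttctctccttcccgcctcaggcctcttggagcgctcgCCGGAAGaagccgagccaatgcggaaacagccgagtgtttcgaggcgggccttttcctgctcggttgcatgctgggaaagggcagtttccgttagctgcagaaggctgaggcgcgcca
Sfrs16, chr7:19604312-19604611, minus strand: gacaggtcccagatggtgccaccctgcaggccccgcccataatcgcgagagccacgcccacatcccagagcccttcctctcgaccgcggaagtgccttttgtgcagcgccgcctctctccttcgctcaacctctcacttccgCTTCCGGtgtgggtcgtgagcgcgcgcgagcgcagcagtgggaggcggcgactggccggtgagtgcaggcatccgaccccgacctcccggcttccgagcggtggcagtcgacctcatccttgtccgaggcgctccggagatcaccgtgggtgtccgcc

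Markers of other cells were read on the same arrays. All 7 genes of the B cell list were well above background on every array. Ptprc is not confined to B cells, but the others bore out the B cell label in both groups. Of the 7, 5 were called lower in the lines (summed relative signal 301 and 293 in the lines, against 552 and 693 in the splenocytes). Among these was Ptprc, 3.55-fold lower. Of 12 proliferation genes, such as Mki67, Top2a and Cdk1, all 12 were higher, with a median log2 difference of 2.31 and summed signals of 442 and 336 in the lines, against 111 and 84.0 in the splenocytes.

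Of 4 tested NK cell markers all were lower in the lines, with summed signals of 0.0627 and 0.0518, against 0.624 and 0.565 in the splenocytes, and Klrk1 and Gzma were not well above background in either line. Of 8 markers of macrophages, monocytes and neutrophils 6 were lower and 1 (Adgre1) higher, and Lyz2 and S100a8 were not well above background in either line. The summed signals of this list were 35.4 and 35.8 in the lines, against 15.6 and 10.2 in the splenocytes, nearly all of it Adgre1 in the lines (35.3 and 35.7). Without Adgre1 the sums were 0.118 and 0.128 in the lines, against 13.5 and 8.52 in the splenocytes. Of 8 T cell markers 3 were lower, among them Cd8a, not well above background in either line, and 2 were higher, among them Cd3g (20.5-fold), with summed signals of 11.8 and 13.6 in the lines, against 7.78 and 5.63 in the splenocytes. Without the higher Cd3g and Cd5 these sums were 1.33 and 1.68 in the lines, against 6.38 and 4.58 in the splenocytes. Of 3 tested erythroid markers 1 was lower, with sums of 2.36 and 0.900 in the lines, against 5.59 and 5.67 in the splenocytes. Of 4 plasma cell markers 2, Prdm1 and Xbp1, were higher. The list summed to 9.48 and 28.5 in the lines, against 45.2 and 64.2 in the splenocytes. Without Prdm1 and Xbp1 the sums were 1.96 and 16.0 in the lines, against 42.2 and 60.6 in the splenocytes. Most of that was Jchain (1.83 and 15.6 in the lines, against 41.6 and 59.7 in the splenocytes). Jchain and Sdc1, the other markers, lay lower in both lines but did not pass. The part of proliferation and of other cells in the differences of the splicing genes was not tested.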

How the data were processed

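RNA was measured on 4 single-colour Agilent mouse arrays with 41174 different non-control probes each. The deposited processed signal is an intensity per spot, which the authors obtained with Agilent Feature Extraction (9.5.1.1 per the file headers, 9.5 per the submitters' processing notes), with background corrected and no scaling between arrays. Raw spot means, local background medians and flags of 0 or 1 are in the same files. The deposited matrix holds the same intensity times 1 factor per array (0.961 and 0.820 for the lymphoma lines, 1 and 2.10 for the splenocyte samples), read from the values. Probe positions are mm8, per the file headers, and no annotation of that build was used, so whether a probe lies in an exon or a UTR is not given.

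Spots marked as non-uniform or population outliers were left out, which removed 153 probes, 1 of them a splicing gene's. The processed signal was divided by the 75th percentile of its array over non-control spots, and log2 was taken. Samples were grouped by their titles. Groups were compared with limma 3.58.1 (lmFit, eBayes, two-sided) in R 4.3.3 with version 1.17.8 of data.table, and p-values were adjusted by Benjamini-Hochberg over 18306 genes, or over 27404 probes for probes. The prior had 2.31 degrees of freedom and an SD of 0.185. A fold is the ratio of geometric means. The precision is limited by 2 arrays per group. The fit was tested on simulated data.

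Array names matched the RefSeq gene list (GRCm38.p6) by accession for 66 genes, by synonym for 3 and by symbol for 1. The members and all lists were chosen with earlier results of these data known. Values on every array are given for the 10 greatest called increases and 10 greatest called decreases well above background on all arrays, for genes with probes called in opposite directions, for the 5 greatest gaps between the lines and for the 6 brightest genes, and the 2 greatest called changes each way are named from each related list. Values on every array of Sf3a1, Snrpn, Lsm2, Clk4, Rbfox1, Ddx23 and Srrm1 were added after their values were seen. Individual values of 2 genes are not reported here, though both stay in the counts. Replicate numbers were not used to pair the samples in the main fit. Deviations of same-numbered arrays correlated at 0.00957 across genes, which cannot show how the samples were collected. Alternatives were other scalings, background correction, filters, probe choices, spread models, a replicate block and leaving out each array.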

Additional observations from a re-analysis of the deposited data

How the results depend on the processing

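Only 8 of the 26 higher calls and 5 of the 10 lower calls held under every alternative tried. They were Snrpb, Snrpd2, Snrpc, Snrpa1, Sf3a1, Prpf19, Sfrs9 and Hnrpll upward, and Prpf39, Sf3b1, Prpf38b, Sfrs16 and Hnrph1 downward. Leaving out 1 array at a time gave 12 to 29 higher and 6 to 11 lower calls: without splenocyte sample 1 they were 13 and 6, without sample 2 they were 12 and 6, and without lymphoma line 2 they were 29 and 8. Fewer samples then stood behind the spread. Without either splenocyte sample in turn, higher calls over all genes fell as well, but by a smaller share than those of the splicing genes. The median of the splicing genes ran from 0.12 to 0.38 over the fits with 1 array left out. With no filter on dim probes, which tests more genes, 16 were called higher. Median centring raised the median of all genes by 0.41 and that of the splicing genes to 0.63, and left 5 lower calls; less the median of all genes, the splicing genes stood at 0.27 as before, and at 0.06 with quantile normalization and 0.55 with normexp. Of the related genes, lower calls became 12 with median centring and 14 with no filter, and leaving out 1 array gave 31 to 59 higher and 12 to 24 lower calls. Taking the mean of a gene's tested probes turned Snrpd1 (-0.27), Sf3b3 (-1.12), Sfrs3 (-0.66) and Sfrs12 (-0.47) negative, through the dimmer probes described above, and made Hnrpa0 0.0557 and Hnrpk 0.339. It also turned uncalled genes: Snrp70 (-1.42), Sfrs10 (-1.22), Hnrpr (-0.60) and Sfrs1 became negative, and Sfrs7, Hnrpu and Hnrpul1 positive. Uncalled genes near 0 also changed sign. Snrpg was -0.0119 with the percentile over bright probes, and -0.0689 to 0.30 with 1 array left out. Hnrpa0 was 0.40 with median centring and 0.0195 with normexp, Hnrpa3 0.23 and Hnrpf 0.19 with median centring and 0.0351 and 0.0758 with quantile normalization, and Hnrpk 0.27 and 0.20 under those 2. With 1 array left out Hnrpa0 ran from -0.31 to 0.30 (0.00831 without splenocyte sample 2), Hnrpa3 from -0.37 to 0.0266 and Hnrpk from -0.30 to 0.0214. With a replicate block 21 splicing genes were higher and 9 lower. The cause of these shifts was not tested. With 1 slide and 1 scan time, a block for either could not be fitted.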
